A study of Rattus norvegicus with 24 samples.

Results

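The genes described here encode the proteins that, with laminin, build the basement membrane: the 6 type IV collagen chains (Col4a1 to Col4a6), the nidogens Nid1 and Nid2, and the heparan sulfate proteoglycans perlecan (Hspg2) and agrin (Agrn). These 10 genes were chosen by name. A transcript cluster is the set of array probes summarised for 1 gene, and the platform annotation paired 5 of the 10 with a cluster: Col4a1, Col4a3, Col4a4, Nid2 and Agrn. A sixth, Col4a5, was named through a pairing of cluster and gene that the study lists among genes it selected on these same samples for their change with lithium. Col4a3 and Col4a4 stand in the same list, so the medullary differences of these 3 genes are not independent evidence of their direction. Col4a2, Col4a6, Nid1 and Hspg2 had no cluster named here and were not analysed. The 6 measured genes are 6 of 14325 named genes on the array, each has 1 cluster, and all 6 passed the filter on low values in both tissues.

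Male Wistar rats received lithium in their food for 6 months, at 40 mmol/kg for the first 7 days and at 60 mmol/kg afterwards, together with a salt block, while controls received a standard diet. Animals 6, 17, 18, 19, 21 and 22 received lithium, and animals 1, 13, 15, 16, 29 and 30 were controls. Their age was not given in the sources used here. RNA from pieces of cortex and of medulla of each animal was hybridised to 24 Affymetrix rat arrays, 6 in each of 4 groups, and levels are log2 signal intensities as deposited. Pieces of tissue hold many cell types, so a lower signal from fewer cells of a type cannot be told apart from less RNA per cell.

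The authors had removed an effect of scan date from the values. This removal leaves a trace that allows the arrays scanned together to be recovered as scan groups. These were kept in the main fits, and some alternatives left them out. In cortex, no other array was scanned with that of lithium animal 17, whose values equal the mean of the other lithium arrays, so the lithium cortex mean rests on 5 arrays. Array medians were 5.75 to 5.83 in cortex and 6.12 to 6.22 in medulla, so levels were compared between tissues after each array was centred on its median. In control medulla against control cortex, 7 of 8 proximal tubule markers were lower and 4 of 6 principal cell markers were higher, the direction that the tissue labels give. The exception called the other way was the principal cell marker Scnn1b, a sodium channel subunit (-0.93, adjusted p of 0.0296 in limma). Over all clusters tested, 37.0% were higher and 19.4% lower in control medulla. Of 3 thin limb markers 2 were higher. The thick ascending limb list and the intercalated cell list each had 2 of 6 markers lower and none higher.

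Type IV collagen chains assemble in the cell as triple-stranded protomers that join into a sheet outside it. Col4a1 and Col4a2 chains occur in nearly every basement membrane, whereas Col4a3, Col4a4 and Col4a5 chains form a separate, more highly cross-linked network in a few places, best known from the glomerulus and also found around distal tubule and collecting duct. Loss of that network causes Alport syndrome. Nidogens tie the collagen sheet to the laminin sheet. Agrin is the main heparan sulfate proteoglycan of the glomerular basement membrane, and perlecan is widespread in other basement membranes.

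The collagen genes lie in head-to-head pairs that are transcribed away from a shared stretch of DNA. They are printed because Col4a3 and Col4a4, 1 such pair, had the largest differences of the 6 genes in lithium medulla, while Col4a1, of another pair, did not share their direction. All positions are those of RefSeq on the GRCr8 build. Col4a1 lies at chr16:84885597-84996482 and Col4a2 at chr16:84749672-84885520, with 76 bases between their starts. Col4a3 lies at chr9:91323990-91453088 and Col4a4 at chr9:91281324-91323577, with 412 bases between their starts. Col4a5 (chrX:109907251-110111214) and Col4a6 (chrX:109554945-109905987) form the remaining pair. The whole stretch between Col4a1 and Col4a2 (chr16:84885521-84885596, plus strand) and the 250 bases before the starts of Col4a3 (chr9:91323740-91323989, plus strand) and Col4a4 (chr9:91323578-91323827, minus strand) are given 5′ to 3′, and capitals mark a GC box, GGGCGG or its reverse complement CCGCCC.
Col4a1-Col4a2: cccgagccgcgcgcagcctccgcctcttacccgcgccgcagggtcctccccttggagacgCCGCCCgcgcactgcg
Col4a3: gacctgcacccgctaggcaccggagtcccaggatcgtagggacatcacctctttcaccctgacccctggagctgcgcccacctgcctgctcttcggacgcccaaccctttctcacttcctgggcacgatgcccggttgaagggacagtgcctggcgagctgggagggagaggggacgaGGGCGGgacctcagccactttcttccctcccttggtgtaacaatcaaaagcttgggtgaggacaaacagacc
Col4a4: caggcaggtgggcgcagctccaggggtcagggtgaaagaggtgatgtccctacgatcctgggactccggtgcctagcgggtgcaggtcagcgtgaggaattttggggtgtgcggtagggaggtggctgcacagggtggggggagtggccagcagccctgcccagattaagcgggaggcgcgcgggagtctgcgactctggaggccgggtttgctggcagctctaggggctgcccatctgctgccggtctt

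The stretch of 76 bases between Col4a1 and Col4a2 was 78.9% G and C. The 250 bases before Col4a3 held 62.0% and those before Col4a4 66.4%, and the median over all promoters was 51.2%. The windows of Col4a3 and Col4a4 share 88 bases on opposite strands. Those of Col4a1 and Col4a2 share the whole stretch between them, so the GC box marked there counts for both genes below. On both strands of the 250 bases before the start, Col4a1 held 1 GC box, Col4a2 held 2, Col4a3 held 1 and Col4a4 held none, and 30.5% of 33469 promoters held at least 1. The letters CCAAT (or ATTGG) occurred once before Col4a1 and once before Col4a2 and not before Col4a3 or Col4a4, against 34.0% of all promoters. The letters TATAAA (or TTTATA), found in 12.9% of all promoters, were in none of these 4 windows. The 3 motifs share no letters with one another where they match here.

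In the medulla of lithium-treated rats, Col4a3, Col4a4 and Col4a5 had lower mean signals than in control medulla, by 0.49 to 0.70 on the log2 scale. None of these differences passed an adjusted p under 0.05 in the main fit, which held the scan groups, although Col4a4 came close. Some other fits that held the scan groups called Col4a3 or Col4a4. Col4a1 and Agrn lay slightly higher and Nid2 slightly lower with lithium, each with overlap between the groups and none called. In cortex, none of the 6 genes passed the test.

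Col4a4 in control medulla measured 9.01, 8.77, 9.02, 8.65, 8.38 and 9.08 in animals 1, 13, 15, 16, 29 and 30, a mean of 8.82 ± 0.273 (SD, n = 6). In lithium medulla it measured 8.39, 7.70, 8.19, 8.01, 8.14 and 8.28 in animals 6, 17, 18, 19, 21 and 22, a mean of 8.12 ± 0.243 (SD, n = 6). Only control animal 29, the lowest control, lay among the lithium animals, just below lithium animal 6. The difference was -0.70 (SE 0.155, 95% confidence interval -1.04 to -0.36), or 0.615 of the control level, with an adjusted p of 0.0531 in limma over 16025 clusters.

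Col4a3 showed the same order of groups. Control medulla measured 9.64, 9.40, 9.66, 9.41, 8.95 and 9.71 in the same order of animals, a mean of 9.46 ± 0.281 (SD, n = 6). Lithium medulla measured 9.07, 8.51, 8.78, 8.76, 8.85 and 9.10, a mean of 8.84 ± 0.217 (SD, n = 6). Control animal 29 was again the one control among the lithium values, below lithium animals 6 and 22. The difference was -0.62 (SE 0.151, 95% confidence interval -0.95 to -0.29), with an adjusted p of 0.0725 in limma.

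Col4a5, the third chain of that network, spread more widely among controls. Control medulla measured 8.12, 7.40, 7.96, 7.22, 7.19 and 7.71, a mean of 7.60 ± 0.391 (SD, n = 6). Lithium medulla measured 7.03, 6.87, 7.14, 7.10, 7.16 and 7.36, a mean of 7.11 ± 0.162 (SD, n = 6). Control animals 16 and 29 fell within the range of the lithium animals, and the other controls lay above it. The difference was -0.49 (SE 0.175), with an adjusted p of 0.1586 in limma.

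**Figure D1:**
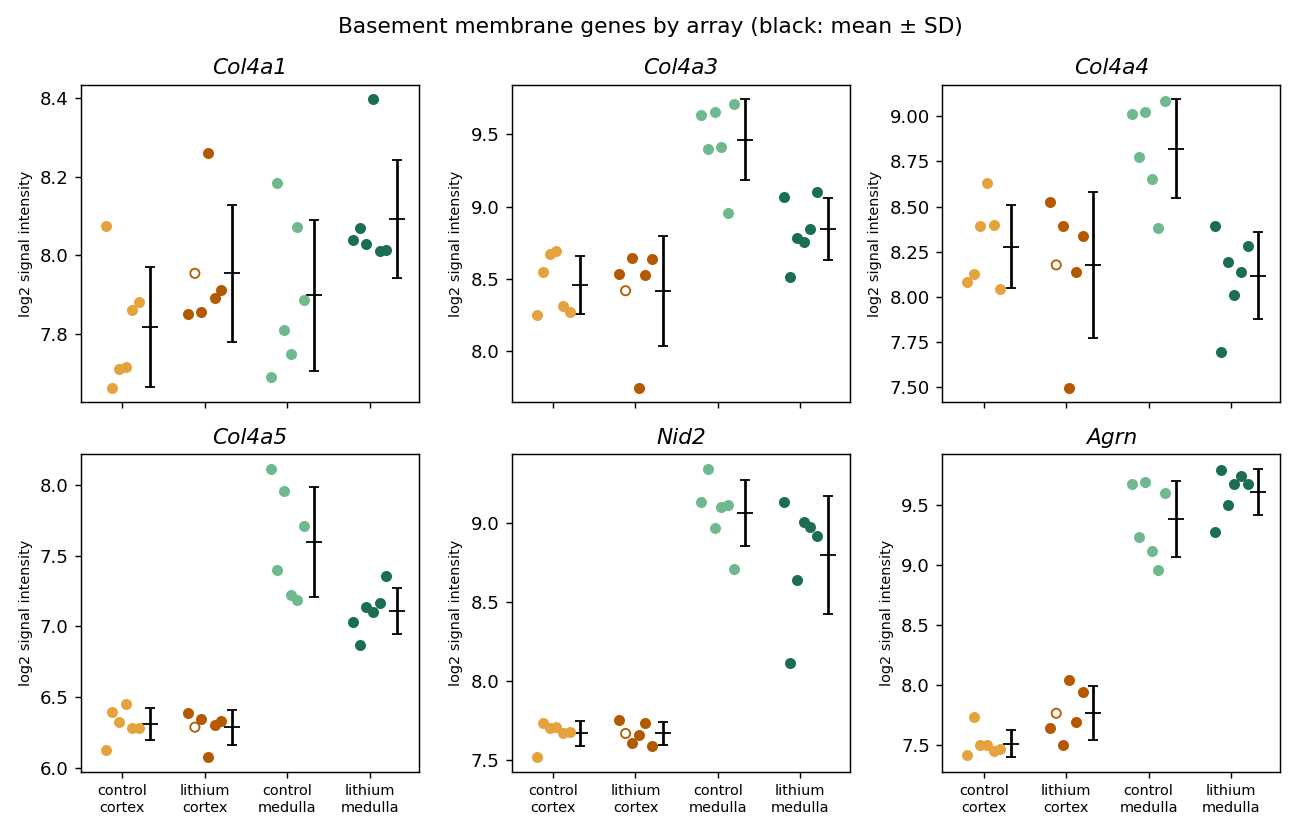
Each panel plots 1 gene, with the log2 signal intensity on the vertical axis and the 4 groups on the horizontal axis; each point is 1 array, in order of animal number within a group, black bars are mean ± SD, and the open point is lithium cortex animal 17, which holds no value of its own. In medulla, the lithium points of Col4a3 and Col4a4 lie below all control points but that of animal 29, and Col4a5, Nid2 and Agrn lie higher in control medulla than in control cortex in every array on this deposited scale.

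The signs of these 3 differences were the same in all 3 scan groups, each of which held 2 animals of each diet in medulla. Lithium minus control was -0.73, -0.77 and -0.36 for Col4a3, -0.85, -0.73 and -0.52 for Col4a4, and -0.81, -0.47 and -0.19 for Col4a5, in the groups of animals 1, 6, 13 and 17, of 15, 16, 18 and 19, and of 21, 22, 29 and 30. The third group, which holds control animal 29, gave the smallest difference for all 3 genes.

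**Figure D2:**
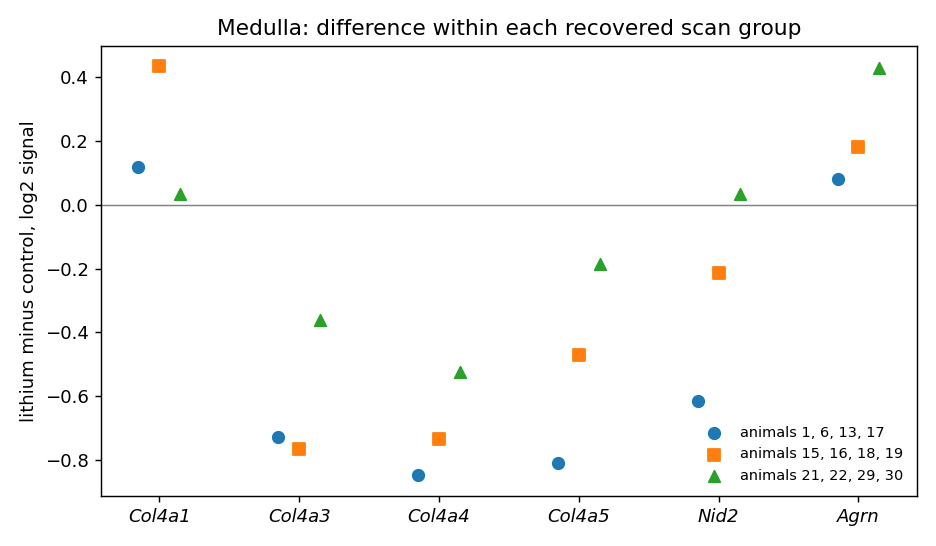
The difference in medulla, lithium minus control in log2 signal, is plotted for each gene within each of 3 recovered scan groups, 1 marker shape per group, each over 2 lithium and 2 control animals. All markers of Col4a3, Col4a4 and Col4a5 lie below 0 (from -0.85 to -0.19) and all markers of Col4a1 and Agrn lie above it.

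Whether Col4a3 and Col4a4 were called turned on the fit. In the main fit, which held the scan groups, 0 of the 6 genes were called, and 190 of 16025 clusters were (1.19%, with 0.356% lower). With no scan groups in the fit, the adjusted p was 0.0216 for Col4a3 and 0.0152 for Col4a4, in a fit that called 6.56% of clusters (3.24% lower), and 0.0770 for Col4a5. With arrays centred on their medians, Col4a4 alone was called (-0.76, adjusted p of 0.0467), with 1.23% of clusters called. Without control animal 29 both were called (adjusted p 0.0206 for Col4a3 and 0.0234 for Col4a4, 1.54% of clusters called), as they were without lithium animal 6 (0.0368 and 0.0237), a fit in which 6.57% of clusters were called. In 10 of the 12 fits that left out 1 array, Col4a3 was not called (adjusted p up to 0.1711). Col4a4 was also not called in 10 of 12 (up to 0.1389). Over 18 alternatives, Col4a3 was called in 4 and Col4a4 in 5. The difference stayed between -0.74 and -0.54 for Col4a3 and between -0.81 and -0.60 for Col4a4. It was smallest for both genes without lithium animal 17.

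Nid2 in control medulla measured 9.13, 9.34, 8.97, 9.10, 9.11 and 8.71, and in lithium medulla 8.11 at the lowest, 8.95 at the median and 9.14 at the highest. Lithium animal 17 stood lowest, and the groups overlapped otherwise. The difference was -0.26 (SE 0.177, 95% confidence interval -0.65 to 0.12), with an adjusted p of 0.4284 in limma, and it was -0.092 without lithium animal 17.

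Agrn in control medulla measured 9.68, 9.23, 9.69, 9.12, 8.96 and 9.60, and in lithium medulla 9.27, 9.79, 9.50, 9.67, 9.74 and 9.68. Control animals 1, 15 and 30 lay within the lithium range and the other controls lay below it. The difference was 0.23 (SE 0.157, 95% confidence interval -0.11 to 0.57), with an adjusted p of 0.4361 in limma, and it was 0.13 without control animal 29.

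Col4a1 in control medulla measured 7.69, 8.18, 7.81, 7.75, 8.07 and 7.89, and in lithium medulla 8.04, 8.07, 8.03, 8.40, 8.01 and 8.01. Lithium animal 19 stood above the other arrays, and control animals 13 and 29 lay within the lithium range. The difference was 0.19 (SE 0.115, 95% confidence interval -0.06 to 0.45), with an adjusted p of 0.3710 in limma, and it was 0.12 without lithium animal 19.

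**Figure D3:**
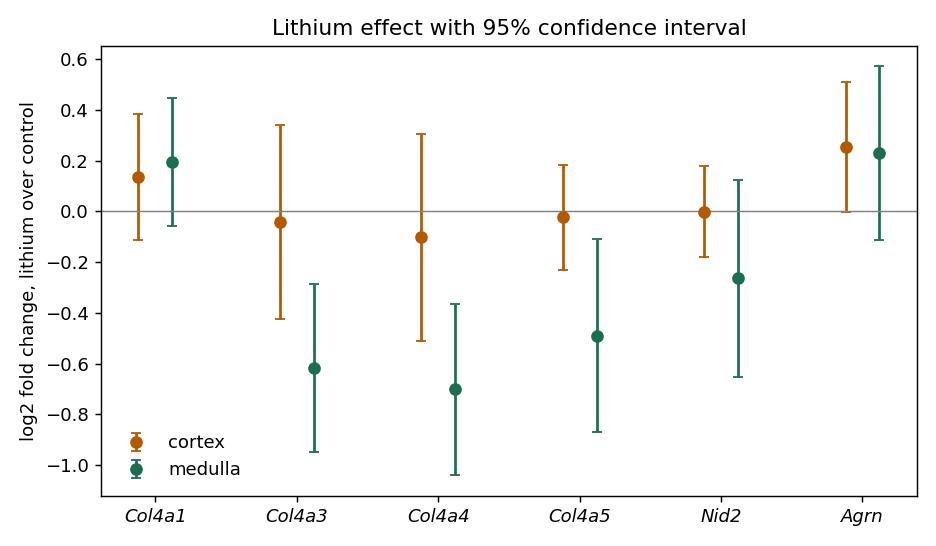
The log2 fold change of lithium over control is plotted for each of the 6 genes in cortex and in medulla, with the 95% confidence interval of the limma fit with scan groups as bars. The medullary intervals of Col4a3 (-0.95 to -0.29), Col4a4 (-1.04 to -0.36) and Col4a5 (-0.87 to -0.11) lie below 0 before adjustment for the number of clusters, and all 6 cortical intervals include 0.

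Markers of several cell types differed between the same medullary groups. Among 5 endothelial markers 1 fell, Emcn, which encodes a surface glycoprotein of capillary and venous endothelium (-0.91, SE 0.191, adjusted p of 0.0462). The mean log2 level of the endothelial list ranged from 8.62 to 8.98 in control medulla and from 7.96 to 8.68 in lithium medulla. Among 6 podocyte markers tested in medulla 1 fell, Podxl, which encodes podocalyxin and is also made by endothelium (-1.01, SE 0.193, adjusted p of 0.0344). The podocyte list averaged 6.64 to 6.91 in control medulla and 6.71 to 6.91 in lithium medulla, and its defining marker Nphs1, which encodes nephrin, averaged 5.91 and 5.93 there, under the filter value of 6, against 7.51 in control cortex. The list of thick ascending limb and distal convoluted tubule varied most between arrays, from 7.06 to 9.93 in control and from 5.93 to 9.34 in lithium medulla. The proximal tubule list ranged from 7.85 to 8.94 and from 7.27 to 8.22. None of the 5 markers tested of the first list and none of the 8 of the second was called. The principal cell list averaged 9.28 to 10.14 in control and 9.01 to 10.00 in lithium medulla, with none of its 6 markers called. The thin limb list averaged 10.44 in control medulla (9.66 to 10.78) and 9.86 in lithium medulla (9.42 to 10.32), with none of its 3 markers called. Macrophage markers Cd68 and C1qa rose by 1.06 and 0.95 with adjusted p of 0.0411 and 0.0454, 2 of 4 tested, with list means of 6.17 to 7.21 in control and 7.23 to 7.69 in lithium medulla. The T cell marker Cd3e rose (0.68, adjusted p of 0.0411 in limma), 1 of 3 tested, from a mean of 5.53 to 6.21. In control medulla 3 of the 4 T cell genes, Cd3e among them, averaged under the filter value of 6. The intercalated cell marker Slc4a9 rose as well (1.99, adjusted p of 0.0156 in limma), 1 of 5 tested. Its list means were 6.17 to 8.70 in control and 8.86 to 9.60 in lithium medulla. Lithium animal 17 held the lowest lithium means of the endothelial (7.96), thick ascending limb (5.93) and proximal tubule (7.27) lists. Its principal cell mean of 9.69 lay among those of the other lithium animals. Control animal 29 held the highest proximal tubule mean (8.94) and the lowest thin limb (9.66) and endothelial (8.62) means of the controls. The part of these lists in the differences of the collagen genes was not tested.

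In cortex, 0 of the 6 genes were called, against 79 of 13766 clusters (0.574%). Agrn had the largest difference. Control cortex measured 7.41, 7.73, 7.50, 7.50, 7.45 and 7.46 in animals 1, 13, 15, 16, 29 and 30, and lithium cortex 7.64, 7.50, 8.04, 7.69 and 7.94 in animals 6, 18, 19, 21 and 22. Lithium animals 19 and 22 lay above all controls and the rest lay among them. The difference was 0.25 (SE 0.117, 95% confidence interval -0.004 to 0.51), with a p of 0.0529 and an adjusted p of 0.6632 in limma.

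Col4a3 in cortex measured 8.25 to 8.69 in controls (median 8.43) and 8.53, 8.64, 7.74, 8.53 and 8.64 in lithium animals 6, 18, 19, 21 and 22. Animal 19 stood far below the rest, which lay within the control range. The difference was -0.04 (SE 0.175), and without animal 19 it was 0.15.

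Col4a4 in cortex measured 8.04 to 8.63 in controls and 8.52, 8.39, 7.50, 8.14 and 8.34 in the same lithium animals, again lowest in animal 19. Its difference was -0.10 (SE 0.187), and 0.09 without animal 19. Col4a5 measured 6.13 to 6.45 in controls and 6.07 to 6.38 with lithium, a difference of -0.02 (SE 0.095). These cortical values of Col4a5 lie just above the filter value of 6. Whether so low a signal shrinks its differences, here and between the tissues, was not tested. Its lowest lithium value was also that of animal 19, and without it the difference was 0.04. Col4a1 ran the other way in animal 19, at 8.26 against 7.85 to 7.91 in the other lithium arrays and 7.66 to 8.08 in controls, and its difference was 0.14 (SE 0.113), or 0.049 without animal 19. Nid2 was the most even of the 6, at 7.51 to 7.73 in controls and 7.59 to 7.75 with lithium, with a difference of 0.00 and a 95% confidence interval of -0.18 to 0.18.

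Collecting duct markers changed between the same cortical groups. Of 6 principal cell markers 1 rose, the water channel Aqp4 (2.17, adjusted p of 0.0040 in limma), and 3 fell, the water channel Aqp2 (-1.46) and the sodium channel subunits Scnn1g (-1.44) and Scnn1b (-0.87). The tight junction gene Cldn4, on the thin limb list and also expressed in collecting duct, rose (1.17, adjusted p of 0.0270 in limma). The principal cell list averaged 7.63 to 8.41 in control cortex and 7.21 to 7.98 in lithium cortex. The part of these in the cortical values of the 6 genes was not tested.

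The cortical array of animal 19 stood apart in marker lists as well. Its fibroblast list averaged 8.91, the highest of the lithium cortex arrays, against 6.56 to 7.44 in control cortex. Its smooth muscle and pericyte list averaged 8.37, against 6.33 to 7.03. Its macrophage list averaged 7.999, against 6.05 to 6.74, and its endothelial list 7.78, against 7.38 to 7.62. Its proximal tubule list was the lowest of the lithium arrays at 10.48, against 10.72 to 11.08 in controls. Lowest as well were its thick ascending limb list (8.49, against 8.81 to 10.24) and its principal cell list (7.21, against 7.63 to 8.41). So was its intercalated cell list (7.92, against 8.03 to 8.86). Its podocyte list averaged 7.39, within the control range of 6.89 to 7.75. The part of these in the low Col4a3, Col4a4 and Col4a5 signals was not tested.

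A difference between medulla and cortex in the response to lithium was tested directly as an interaction. It was negative for Col4a3 (-0.58, SE 0.243, p of 0.0282), Col4a4 (-0.60, SE 0.256) and Col4a5 (-0.47, SE 0.211), and after adjustment in limma none of the 6 genes was called (lowest adjusted p 0.3609, Col4a3), with 0.0915% of 16388 clusters called. For Agrn the interaction was -0.02 (95% confidence interval -0.45 to 0.41). With the animal as a replicate block, since both tissues came from the same rats, the interaction of Col4a3 was -0.50 and that of Col4a4 -0.50, and none of the 6 was called.

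Between the tissues of control rats, Agrn, Nid2, Col4a5 and Col4a3 were higher in medulla than in cortex, Col4a4 did not pass the test on centred arrays, and Col4a1 was slightly lower. Thus 5 of 6 genes were called, in a comparison in which 56.4% of 16388 clusters were called, 37.0% higher and 19.4% lower in medulla.

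Agrn had the largest difference, with deposited levels of 8.96 to 9.69 in control medulla and 7.41 to 7.73 in control cortex. After centring it was 1.51 higher in medulla (SE 0.139), or 2.85-fold, with an adjusted p of 4.89e-08 in limma. Nid2 measured 8.71 to 9.34 in medulla and 7.51 to 7.73 in cortex, and was 1.04 higher after centring (SE 0.149, 2.05-fold, adjusted p of 1.08e-05). Col4a5 measured 7.19 to 8.12 in medulla and 6.13 to 6.45 in cortex, and was 0.93 higher (SE 0.150, 1.91-fold, adjusted p of 3.81e-05). These 3 genes had no overlap between the groups after centring, which held for 38.0% of clusters (25.2% higher in medulla).

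The 3 chains of the Col4a3, Col4a4 and Col4a5 network did not have equal differences. Col4a3 was 0.65 higher in medulla (SE 0.175, 1.57-fold, adjusted p of 0.0041), whereas Col4a4, with which it shares its stretch of DNA, was 0.18 higher (SE 0.186, 95% confidence interval -0.21 to 0.57, adjusted p of 0.4180). The differences between these genes were not tested. Of 7 podocyte markers tested, 5 were lower and 1 higher in control medulla, led by Ptpro (-1.99) and Nphs1 (-1.96). Ptpro and Nphs1 averaged 5.79 and 5.91 in control medulla, under the filter value of 6. Of 5 endothelial markers 4 were higher, led by Tek (1.59). The part of podocytes and endothelium in the differences was not tested. On the values as deposited Col4a3 was 1.01 higher and Col4a4 was also called (0.54, adjusted p of 0.0105), as were 74.9% of clusters.

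Col4a1 measured 7.69 to 8.18 in control medulla and 7.66 to 8.08 in control cortex on the deposited scale, which overlap almost wholly. After centring it was 0.28 lower in medulla (SE 0.112, adjusted p of 0.0418). The direction turned to 0.08 higher on the values as deposited (adjusted p of 0.5230), and the call was lost in 8 of 12 fits that left out 1 animal (adjusted p up to 0.1877, without animal 1), those without animals 1, 6, 15, 16, 18, 21, 22 and 30.

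**Figure D4:**
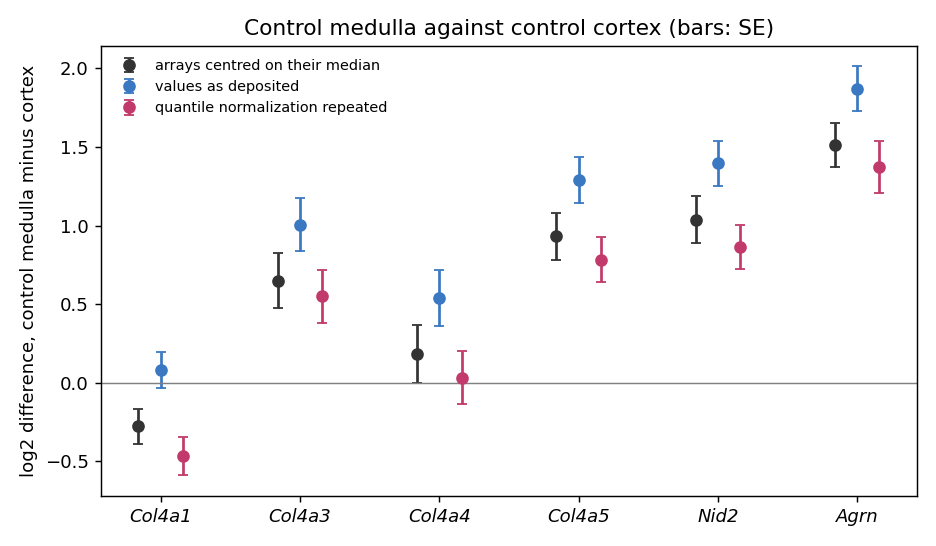
The log2 difference of control medulla minus control cortex is plotted for each gene with its SE as bars, after centring each array on its median, on the values as deposited and after repeating the quantile normalization over all arrays. Agrn, Nid2, Col4a5 and Col4a3 lie above 0 under all 3 scalings, while Col4a1 lies at -0.28, 0.08 and -0.47.

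The order of the 4 groups differed by gene, here on array-centred log2 levels. Agrn had its highest mean in lithium medulla (3.41), then control medulla (3.24), lithium cortex (1.97) and control cortex (1.72). Within each tissue its lithium and control values overlapped. Col4a3 was highest in control medulla (3.32), and control cortex (2.67), lithium medulla (2.65) and lithium cortex (2.62) followed with overlapping values. On the deposited scale lithium medulla (8.84) came before control cortex (8.46) instead. Col4a4 ran from control medulla (2.68) to control cortex (2.49), lithium cortex (2.39) and lithium medulla (1.92), with overlap between each pair of neighbours. Over the 24 arrays, each gene centred on its own mean, the root mean square difference was 0.25 between Col4a3 and Col4a5, 0.26 between Col4a3 and Col4a4, and 0.56 between Col4a1 and Col4a3. Among 8090 genes, those closest to Col4a3 were C2cd5 (0.183), Sestd1 (0.186) and Tm7sf2 (0.194), with Col4a5 in place 85 and Col4a4 in place 162. Those closest to Col4a1 were Slc46a1 (0.126), Rps2 (0.140) and Ciita (0.143). These are descriptions over arrays that share animals and tissues.

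Genes that fold and cross-link collagen were mostly called higher in control medulla. Their list was drawn up for the folding, export and cross-linking of type IV collagen, and 13 of its 14 genes had a cluster. Pxdn and P4ha3 had group means under the filter value of 6 and were not tested. How far the genes tested stand for type IV collagen in particular was not tested. Of 11 tested, 9 were higher and none lower, where 37.0% of all clusters were higher and 19.4% lower, with a median difference of 0.62 against 0.14 over all clusters tested. Plod2, a lysyl hydroxylase, was 2.67 higher (SE 0.195), and P4ha2, a prolyl hydroxylase subunit, 1.09 higher (SE 0.195). The lysyl oxidases Loxl2 and Lox were 1.05 and 0.95 higher. In control cortex Plod2, P4ha2, Loxl2 and Lox averaged 5.97, 5.92, 5.88 and 5.23, all under the filter value of 6. With Pxdn and P4ha3, 6 of the 13 genes averaged under it there. The part of these low cortical levels in the sizes and calls was not tested. With the quantile normalization repeated, 6 of the 11 were called higher. With lithium, the 1 gene of the list called was P4ha1, the catalytic prolyl hydroxylase subunit, in cortex, which rose from a mean of 7.60 to 8.08 (0.48, SE 0.088, adjusted p of 0.0356 in limma), and it was called in 7 of 18 alternatives (adjusted p of 0.000878 to 0.1331). In medulla none of the 11 was called.

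Of 15 other basement membrane genes tested between the tissues, 8 were higher and 3 lower in control medulla, where 37.0% of all clusters were higher and 19.4% lower. Tinag, the tubulointerstitial nephritis antigen of proximal tubule basement membrane, was lower in medulla (-3.71, SE 0.318), and its relative Tinagl1 was 2.75 higher (SE 0.285). The laminin β chain genes Lamb3 and Lamb2 were 1.74 and 1.33 higher. None of the list passed the test with lithium, of 11 tested in cortex and 14 in medulla.

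Of 9 receptors of these proteins tested between tissues, 6 were higher and 2 lower in control medulla, beside the same 37.0% and 19.4% of all clusters. Itga2, a subunit of a collagen-binding integrin, was 2.60 higher (SE 0.409). It averaged 5.07 in control cortex, under the filter value of 6, and 8.02 in control medulla. Bcam, a laminin receptor, was 1.77 higher (SE 0.224), and Itgb4, a laminin-binding integrin subunit, was 1.76 higher (SE 0.184). Itga6, its usual partner, was lower (-1.65, SE 0.127). No receptor passed the test with lithium, of 8 tested in cortex and 9 in medulla.

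Agrin and perlecan carry heparan sulfate, and of 12 genes that make or edit this chain 5 were higher and 1 lower in control medulla. The deacetylase-sulfotransferases Ndst1 and Ndst2 were 1.37 and 0.74 higher, and the chain-building Extl3 and Ext2 were 1.17 and 0.68 higher. Both counts are near the shares over all clusters tested, 37.0% higher and 19.4% lower. They turned on the scaling, with 10 called higher and none lower on the values as deposited and 5 higher and 3 lower with the quantile normalization repeated. With lithium, Sulf2, which removes sulfate groups from finished chains, rose in medulla from a mean of 8.52 to 9.38 (0.86, SE 0.142, adjusted p of 0.0192 in limma), and was called in 10 of 18 alternatives (adjusted p of 0.0014 to 0.0867). No gene of the list was called in cortex, of 12 tested.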

How the data were processed

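The authors made the deposited log2 values from Affymetrix rat arrays by RMA in Partek (background correction, then quantile normalization, then median polish), removed scan date by ANOVA, and averaged probe sets into 28894 transcript clusters. The submitters' processing notes name the rn4 build. Clusters were named from the platform annotation (15097 with 1 symbol, 323 with several, 13474 with none), and Col4a5 from the study's own pairing. Scan groups were recovered from combinations of arrays that hold no residual variance. Clusters that reached a log2 value of 6 on 4 or more of a tissue's 12 arrays were tested with limma 3.58.1 in R 4.3.3 with the scan groups as a covariate, with Benjamini-Hochberg adjustment and a threshold of 0.05. The scripts were tested on simulated data. Replicates are separate animals. The number of arrays limits the precision. The animal numbers pair the tissues, since both came from the same rat (correlation of deviations -0.06 to 0.42 over 11 animals with values of their own).

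The 10 genes are described in every comparison, up to 4 called genes of each other list by size of change, and the 3 genes closest to Col4a1 and to Col4a3. For cell type markers, called genes are named where they stand beside a result of the 10 genes. The members and lists were chosen with earlier results of these data known. Alternatives were no scan groups, no filter, centred or deposited values, repeated quantile normalization, the animal as a block, each array or animal left out, and the methods' 2-way ANOVA and t-test at their thresholds on p and fold.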

Additional observations from a re-analysis of the deposited data

Results flagged for a closer look

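Of 24 combinations of gene and group examined for 1 array far from the rest, 6 had one. Chance gives about 1 in 20 where combinations are independent. These share arrays and animals, so the count cannot be set against that rate. Animal 19 was that array in 4 of the 6. In lithium cortex its Col4a1 was the highest (8.26) and its Col4a3 (7.74) and Col4a5 (6.07) were the lowest. In lithium medulla its Col4a1 was the highest (8.40). In control cortex the Agrn of animal 13 was the highest (7.73) and the Nid2 of animal 1 the lowest (7.51).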

How the results depend on the processing

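The main limits are the 6 animals in a group, the 5 lithium cortex arrays with values of their own, and the removal of scan date before deposit. No other result of the 6 genes changed its direction or its call outside the values given here and in the report, and the cause of those that did was not tested.

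In cortex, 79 clusters were called. The count was 288 with no scan groups, 14 by the methods' 2-way ANOVA after Benjamini-Hochberg adjustment and 143 at its thresholds on p and fold, 296 and 163 by the methods' t-test, and 34 to 92 with 1 array left out. None of the 6 genes was called in any of these. In medulla, 190 were called, and the count was 1052 with no scan groups, 37 and 558 by the ANOVA, 650 and 651 by the t-test, and 50 to 1053 with 1 array left out, the highest without lithium animal 6. Of the 6 genes, 2 were called with no scan groups, 1 with arrays centred, 2 by the ANOVA at its thresholds, 2 and 2 by the t-test, and 0 to 2 with 1 array left out. Centring moved the share of medullary calls that were higher from 70.0% to 51.3%.

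Between control tissues, 9245 clusters were called, 16472 with no filter and 8043 to 9478 with 1 animal left out, and 4 to 5 of the 6 genes were called in the latter. The share of calls higher in medulla was 65.5%, against 88.6% on the values as deposited and 54.8% with quantile normalization repeated, with a median difference over all clusters of 0.14, 0.50 and 0.05. Col4a1 turned to 0.081 on the values as deposited. With the animal as a replicate block and scan groups, differences were 1.53 for Agrn, 0.95 for Nid2, 0.90 for Col4a5, 0.60 for Col4a3, 0.13 for Col4a4 and -0.28 for Col4a1, and the block changed no call of the 6 genes.

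For the interaction, 15 clusters were called, 9 with arrays centred, 357 with no scan groups, 5 with the replicate block and scan groups, 345 with the block alone, and 5 to 57 with 1 animal left out. That of Agrn turned to 0.095 with quantile normalization repeated. With 1 array or animal left out, signs turned for differences not called: in cortex Col4a3 ranged from -0.10 to 0.15, Col4a4 from -0.27 to 0.093, Col4a5 from -0.072 to 0.038 and Nid2 from -0.044 to 0.022, and the interaction ranged from -0.11 to 0.072 for Agrn and from -0.046 to 0.16 for Col4a1. Another cluster of the same gene was not tried, since each measured gene has 1.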
